A study of Mus musculus with 8 samples.

Results

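Molecular chaperones of the heat shock and DnaJ families were followed in mPFC, the medial prefrontal cortex, of male mice of the C3H/HeN strain. Of the 8 mice, 4 were controls and 4 had gone through maternal separation (MS). The members were chosen by name: every gene on the array whose symbol starts with Hspa, Hspb, Hspd, Hspe, Hsph, Hsp90, Dnaja, Dnajb or Dnajc followed by a number or letter, with Hspbp1 and Hspbap1 left out because they are partners rather than family members. This gave 71 of the 34797 gene names on the array, carried by 108 of its 55681 probes. C3H/HeN is an inbred strain, and the labels name no engineered allele. MS pups were taken away from a dam that was itself stressed, daily between postnatal days 2 and 14, while control litters were not disturbed. Both groups were weaned at postnatal day 21, did the operant tests for palatable food as adults, and were killed after a period without food. The mPFC was dissected from whole brains, so a value is the average over all its cells, and fewer cells of a type and less RNA per cell cannot be told apart. Each mouse gave 1 array, and mice carry the name of their group and their label number (control 6.2, MS 5.3). The comparison asks whether the early stress left a mark on the chaperone genes of the adult mPFC.

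Chaperones bind unfolded stretches of other proteins and keep them from clumping until they fold, are moved or are broken down. The Hsp70 proteins (Hspa genes) do this in a cycle of ATP use that DnaJ proteins start by delivering clients and speeding up ATP hydrolysis, and that Hsph1, an Hsp110 protein, resets by exchanging the nucleotide. The Hsp90 proteins act later, on nearly folded clients such as steroid receptors, among them the glucocorticoid receptor. Small heat shock proteins (Hspb genes) hold unfolded proteins without using ATP. Many of the genes fall into classes. Heat shock factor 1 switches on the inducible ones within minutes of heat or proteotoxic stress. Constitutive ones are made without such stress, though not all of them in every cell. Those of the endoplasmic reticulum (ER) are controlled by the unfolded protein response. Others belong to mitochondria or are made mainly in testis or muscle.

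Inducible and ER genes are known to answer to different factors, so the motifs of both were searched. Promoter windows of 300 bases (250 before to 50 after the start, RefSeq, GRCm38.p6) were at hand for 57 of the 71 members. Heat shock factor binds repeats of GAA and its complement TTC, each 2 bases from the next, so the pairs TTCNNGAA and GAANNTTC were searched. Each pair reads the same on both strands, and neighbouring pairs can overlap. At least 1 pair lay in a window of 6 of the 7 inducible genes with a window (Hspa1b included) and of 1 of the 7 ER genes, Dnajc10, against 17.0% of all 27025 genes. A gene was counted if any of its windows held a pair, and the numbers of windows were unequal. Dnaja1 had 3 windows, Hsph1, Dnajb1 and Dnajb4 had 2 each, and the other inducible genes and the ER genes had 1 each. Shown are the pairs before the start of the inducible genes, with the pair in capitals, read 5′ to 3′ on the strand of the gene.
Hspa1a, chr17:34972245-34972268, minus strand: aactgctgGAAgaTTCctggcccc
Hsph1, chr5:149636354-149636377, minus strand: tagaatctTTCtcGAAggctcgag
Hspb1, chr5:135887794-135887817, plus strand: caacaagaGAAgtTTCcagatggg
Hspb1, chr5:135887814-135887837, plus strand: tgggggcaGAAccTTCctggcccc
Dnaja1, chr4:40722336-40722359, plus strand: agcctctaGAAaaTTCtacgaggc
Dnajb4, chr3:152193846-152193867, minus strand: gttcgctgTTCtaGAAagtaca
The 24 bases of Hspa1a are also those of its neighbouring copy Hspa1b, at chr17:34959327-34959350, in the same place 104 bases before the start. Neither window of Dnajb1 held a pair, and no window was at hand for Hsp90aa1, Hspa8, Hsp90ab1 or Hspa13. Runs of 3 alternating units were in windows of 4 members (Dnajb6, Hspd1, Hspe1 and Hsph1), against 0.662% of all genes.

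The ER stress element, CCAAT followed 9 bases later by CCACG on either strand, was in 3 of the 7 ER genes with a window and in 0.137% of all genes. It is shown for these 3 genes because they recur below, with both ends of the element in capitals.
Hspa5, chr2:34772020-34772048, plus strand: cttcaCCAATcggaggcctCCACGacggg
Hsp90b1, chr10:86705633-86705661, minus strand: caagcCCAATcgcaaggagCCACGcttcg
Hsp90b1, chr10:86705528-86705556, minus strand: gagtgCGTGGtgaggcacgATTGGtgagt
Dnajc3, chr14:118937822-118937850, plus strand: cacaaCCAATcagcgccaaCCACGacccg
The second element of Hsp90b1 is written in its reverse complement form. No ER gene with a window held 3 alternating heat shock units, and no inducible gene held the ER element. These are matches of letters, not measured binding.

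Levels are given as the log2 of the spot signal minus the 75th percentile of the array, so 0 is the level of a fairly bright probe and a step of 1 is a doubling. Probes differ in how well they bind, so levels are compared between animals and not between genes. Of the 71 members, 66 were tested, which took 1 group or both with all 4 arrays well above background. Dnajb7, Dnajb13, Dnajc5g and Dnajc22 were not well above background on any of the 8 arrays, and Dnajc5b was so on 3 arrays of each group. Between 61.5% and 68.9% of all probes were well above background, no spot was saturated, and the number of arrays limits the precision.

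Control 8.4 stood apart from the other 7 mice. Of the 7 cortical excitatory neuron markers, which all were tested, the median deviation from the mean over the mice was −0.60 in control 8.4 and −0.10 to 0.26 elsewhere. The 9 striatal projection neuron markers had a median of 1.26 above their mean in this mouse and lay between −0.33 and −0.10 in the rest. Olfactory bulb markers (7 genes) had a median of 3.04 above their mean in control 8.4. That of MS 7.6 was 1.54, that of control 8.5 was 0.73, and the rest ran from −1.15 to −0.61. None of these markers is a member, and their part in the chaperone results was not tested, and several results are given both with and without this mouse.

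No chaperone gene differed between MS and control mice after adjustment (limma, Benjamini-Hochberg over all 34096 tested probes, 0 of 66 members and 0% of all probes at an adjusted p under 0.05). Without adjustment, 2 of the 66 members passed p under 0.05, which is 1 higher and 1 lower in MS. Over all probes the shares were 2.39% in either direction, 1.18% higher and 1.21% lower, so the 2 members are near the number that the array as a whole gives. The groups did not overlap for 1 member, Dnajb1, which was higher in MS, and for no member in the other direction, beside 0.856% of all probes higher and 0.584% lower. The fitted differences were above 0 for 49 members and below 0 for 17, with a median of 0.03 against 0.01 for all probes. Of the 34096 tested probes, 18614 were above 0 and 15482 below. The count of members depended on control 8.4. Without this mouse 35 of the 66 members were above 0 and 31 below, and the median for all probes was then −0.0037.

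**Figure D1:**
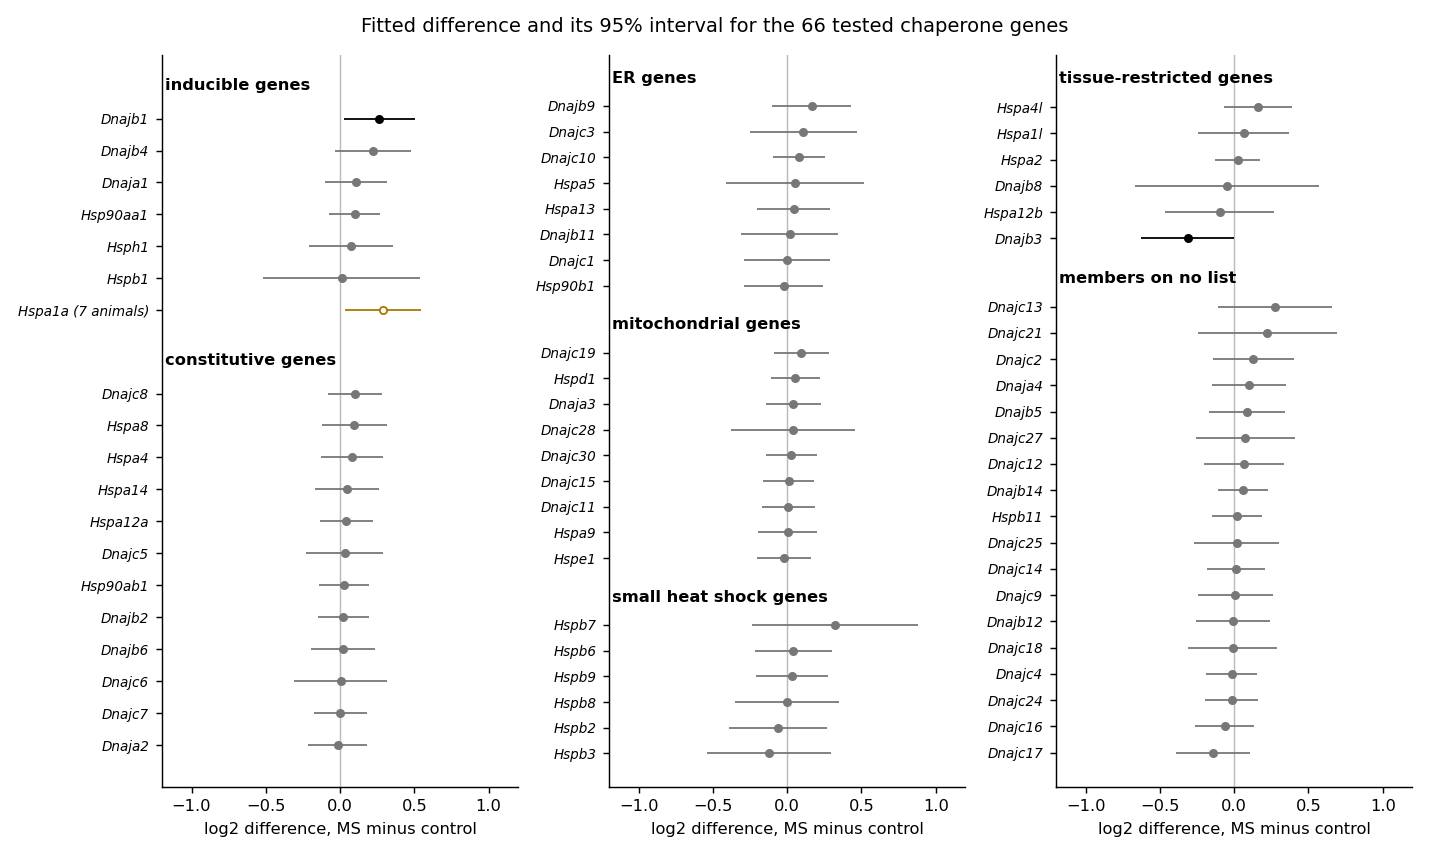
Fitted log2 difference (MS minus control, x axis) with its 95% interval for each of the 66 tested chaperone genes, grouped by list. Black marks Dnajb1 and Dnajb3, the 2 genes at an unadjusted p under 0.05, grey the rest, and the open symbol Hspa1a without control 6.2.

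Dnajb1, the DnaJ protein (Hsp40) that works with inducible Hsp70, had the lowest p among members higher in MS. Its level was 4.64, 4.92, 4.55 and 4.95 in controls 6.2, 8.2, 8.4 and 8.5, and 5.08, 4.98, 5.06 and 5.0 in MS 5.3, 7.1, 7.2 and 7.6. The MS mice lay close together, just above controls 8.5 and 8.2, and controls 6.2 and 8.4 were well below. The difference was 0.26 ± 0.11 (SE), a ratio of 1.2, with a 95% interval of 0.02 to 0.51 (limma, unadjusted p = 0.0352, adjusted p = 0.9996). Within the upper and the lower row of the slide, each with 2 mice of each group, it was 0.24 and 0.29. Leaving out control 8.4 gave 0.19 and leaving out control 6.2 gave 0.22, with unadjusted p values of 0.0794 and 0.0936, and the unadjusted p also rose above 0.05 without MS 5.3, MS 7.2 or MS 7.6. The groups overlapped when each array was scaled by its median, with the normexp background correction and in the authors' normalised table, where the difference was 0.17.

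Hspa1a, the stress-inducible Hsp70 itself, had the highest SD within groups of the 66 tested members, through 1 mouse. Control 6.2 was at 3.32, while the other controls were at −0.84 (8.2), −1.11 (8.4) and −0.82 (8.5) and the MS mice at −0.52 (5.3), −0.79 (7.1), −0.63 (7.2) and −0.59 (7.6). The value of control 6.2 was 14.3 times that of the next mouse. The gene has 1 probe on the array, with 1 spot, at chr17:35107117-35107176 on build mm9, minus strand. Its near-identical copy Hspa1b is not named on the array, and whether the probe also binds Hspa1b was not checked.

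The Hspa1a spot of control 6.2 lay among other raised spots. Of the 24 spots within 2 rows and 2 columns of it, 4 were over 1 log2 above the median of the same spot over the 8 arrays, by 4.92, 1.88, 1.14 and 7.66, and a further spot 3 rows away was up by 9.34. The spot up by 1.14 was still not well above background. On the other 7 arrays the same 24 spots held none other than 1 on MS 7.2. Within 40 rows and 10 columns, 10 of 860 spots with a median level above −4 were over 2 log2 up on control 6.2, against 4 of 30417 elsewhere on that array and 0 of the 860 on each other array. The spread of pixels within the Hspa1a spot was 31.4% of its mean on control 6.2 and 10.3% to 19.8% on the others. The scanner software marked 4 of these 5 raised spots as uneven, but not the Hspa1a spot. Their part in the value of Hspa1a was not tested. Of the other member probes in that stretch, those of Dnajc28, Dnajc6 and Dnajc5g deviated from their medians by 0.22, 0.11 and −0.37 on control 6.2.

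**Figure D2:**
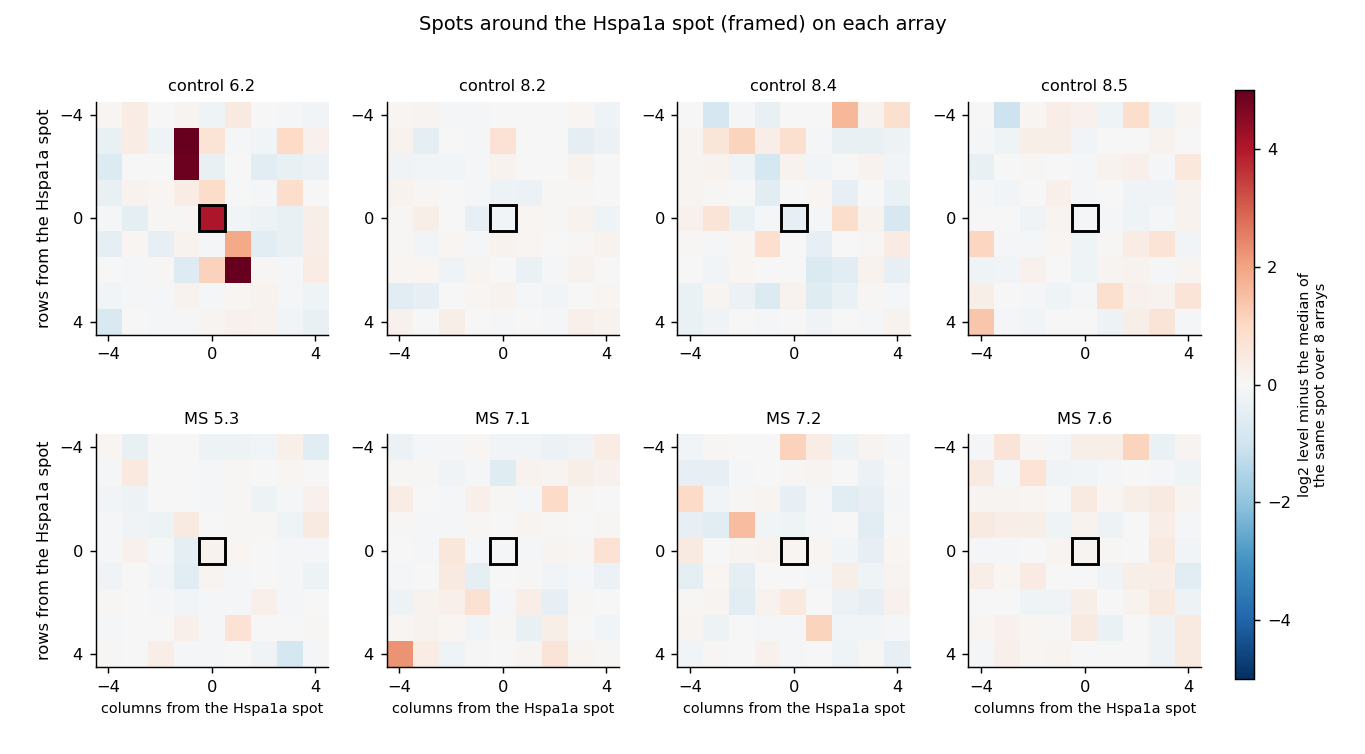
Signal of the spots around the Hspa1a spot (framed) on each of the 8 arrays, as log2 level minus the median of the same spot over the arrays, with the distance in rows and columns of spots on the axes and the colour scale ending at 5. On control 6.2 the raised spots run in a line through the frame, and the other 7 arrays show no such line.

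With all 8 mice, Hspa1a differed by −0.77 ± 0.88 (SE, limma, unadjusted p = 0.407). Without control 6.2 the sign turned: the 3 remaining controls averaged −0.92 ± 0.16 (SD, n = 3) and the MS mice −0.64 ± 0.11 (SD, n = 4), and the groups did not overlap. The difference was then 0.29 ± 0.11 (SE), a ratio of 1.22, with a 95% interval of 0.03 to 0.55 (limma, unadjusted p = 0.0327, adjusted p = 0.966). In that setting 2 of the 66 members, Hspa1a and Dnajc13, were higher at an unadjusted p under 0.05, beside 1.78% of all probes, and 3 of the 66, Hspa1a, Dnajb1 and Dnajc8, did not overlap, beside 2.19%.

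The other inducible genes had small differences, all above 0 with 8 mice, where that of Hspa1a was below 0. The sign turned for Hsph1 in 1 and for Hspb1 in 3 of the 8 runs with a mouse left out. Dnajb4, a DnaJ protein also linked to heat shock, was at −1.04, −0.85, −1.33 and −0.89 in the controls (6.2, 8.2, 8.4, 8.5) and at −0.77, −0.73, −0.85 and −0.88 in the MS mice (5.3, 7.1, 7.2, 7.6). Control 8.2 lay among the MS mice and the other controls below them, and the difference was 0.22 ± 0.11 (SE, limma, unadjusted p = 0.0847), or 0.12 without control 8.4. Hsp90aa1, the inducible Hsp90, ran from 5.8 (control 6.2) to 6.04 (MS 7.1), a narrow range in which the MS mice lay between 5.93 and 6.04, and its difference was 0.10 ± 0.08. Dnaja1, which serves Hspa8 and Hsp70 in the cytosol, ran from 4.66 (control 6.2) to 5.03 (MS 5.3), and its difference was 0.11 ± 0.09. Hsph1 was at 4.59, 4.83, 4.51 and 4.74 in the controls and 5.0, 4.49, 4.69 and 4.77 in the MS mice, so that MS mice were both the highest and the lowest. Its difference was 0.07 ± 0.12, or 0.02 without control 8.4, and its second probe gave 0.08.

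Hspb1 (Hsp27), a small heat shock protein that also protects the actin skeleton, split the mice in a way that cut across the groups. It was at 2.02 in control 6.2, 2.03 in MS 7.1 and 2.07 in MS 7.2, and at 2.48 to 2.85 in the other 5 (control 8.5, control 8.4, control 8.2, MS 7.6 and MS 5.3 in rising order). The means of the groups were 2.43 ± 0.29 and 2.44 ± 0.45 (SD, n = 4), and the difference was 0.01 with a 95% interval of −0.52 to 0.54.

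Over the 7 tested inducible genes, 6 differences were above 0 and their median was 0.10, beside 0.01 for all probes. Taken mouse by mouse, controls 6.2 and 8.4 were each the lowest of 8 for 3 of the 7 genes, MS 5.3 was the highest for 4, MS 7.1 was the highest for 2 and the lowest for 1, control 6.2 was the highest for 1, and controls 8.2 and 8.5 and MS 7.2 and 7.6 were neither for any. Without control 8.4 the median was 0.08, and without control 6.2 it was 0.07, both with 6 of 7 above 0. Without MS 5.3 it was 0.07, with 4 of 7 above 0. In the authors' table the median was 0.03. Immediate-early genes (7 tested), which mark recent neuronal activity, had medians of −0.29 and −0.33 in controls 6.2 and 8.4 and of −0.11 to 0.41 in the rest, and their part in the low values of these mice was not tested.

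**Figure D3:**
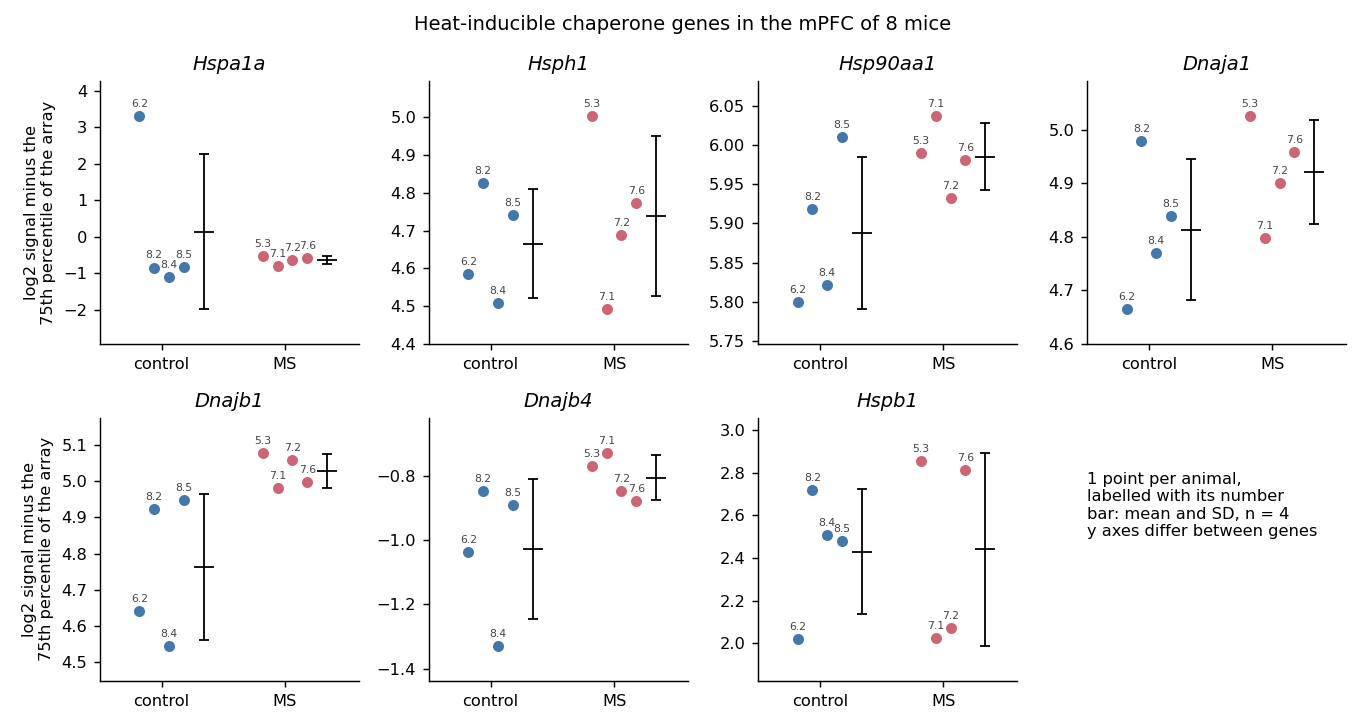
Level of the 7 tested inducible genes in each mouse (y axis, log2 signal minus the 75th percentile of the array, with a scale of its own for each gene), with the mean and SD of each group (n = 4). The 4 MS mice lie above all controls for Dnajb1, 1 control lies far above the rest for Hspa1a, and 3 mice of both groups lie below the other 5 for Hspb1.

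Like many other members, most ER chaperones differed more between mice of the same group than between the groups. The median SD within groups of the list, 0.18, was close to that of all tested probes, 0.17, which takes no account of brightness. Against the tested probes nearest in brightness, the SD was above that of 90.6% for Dnajb11, 85.4% for Hsp90b1 and 82.4% for Dnajc3. It was above that of 80.1% for Dnajc1, 74.3% for Dnajb9, 55.8% for Hspa13 and 16.8% for Dnajc10. Hspa5 (BiP), the Hsp70 of the ER and the sensor partner of the unfolded protein response, was at 4.66, 5.06, 4.82 and 5.04 in the controls (6.2, 8.2, 8.4, 8.5) and 5.34, 4.53, 4.63 and 5.29 in the MS mice (5.3, 7.1, 7.2, 7.6). MS mice took the first 2 and the last 2 places, with all controls between. The highest and lowest mouse differed 1.76-fold, and the groups by 0.05 with a 95% interval of −0.41 to 0.52. The SD within groups, 0.33, was above that of 98.1% of the tested probes nearest in brightness. Hsp90b1 (Grp94), the Hsp90 of the ER, gave nearly the same order, at 4.97 and 4.85 in MS 5.3 and MS 7.6 and 4.51 and 4.56 in MS 7.1 and MS 7.2, with controls from 4.65 to 4.84. Its difference was −0.02 ± 0.12. Dnajb11, a DnaJ protein of the ER lumen, did so too, with 3.17 and 3.05 against 2.55 and 2.69, and controls from 2.72 to 2.94.

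Dnajc3 (p58IPK), which assists BiP and restrains a stress kinase, was highest in MS 5.3 at 0.02 and lay between −0.66 and −0.23 in the rest. Dnajc1 had its 2 lowest values in MS 7.1 (1.27) and control 6.2 (1.32) and its highest in MS 5.3 (1.79). Dnajb9, Dnajc10 and Hspa13 did not share the order. Dnajb9 had the largest difference of the list, 0.16 ± 0.12 (0.24 without control 8.4), with control 8.5 the lowest of 8 at 1.43. Of the 8 ER genes, 5 were highest in MS 5.3 and 4 lowest in MS 7.1. The median difference of the list was 0.05, with 6 of 8 above 0, and without MS 5.3 it was −0.04, with 3 of 8 above 0.

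ER stress genes outside the chaperone families lay above their medians over 8 mice in MS 5.3 and MS 7.6, and in control 8.2 as well. Of 14 such genes, 13 did so in MS 5.3, 11 in MS 7.6, 13 in control 8.2 and 9 in control 8.5, but 2 in MS 7.1, 3 in MS 7.2, 2 in control 6.2 and 3 in control 8.4. Sdf2l1, an ER protein that works with BiP, was at 1.1 and 1.0 in MS 5.3 and MS 7.6 and at 0.03 or below in MS 7.2, MS 7.1 and control 6.2. The group difference was 0.21 ± 0.28 for Sdf2l1, 0.23 ± 0.12 for Herpud1, −0.05 ± 0.17 for Calr and −0.05 ± 0.07 for Atf4. None of the 14 passed an unadjusted p under 0.05. MS 5.3 and MS 7.1 were in the upper slide row and MS 7.6 and MS 7.2 in the lower one. Blood markers (3 genes) moved the opposite way in the MS mice, with median deviations of −0.34 and −0.47 in MS 5.3 and MS 7.6 and of 0.37 and 0.10 in MS 7.1 and MS 7.2. They moved the same way in the controls, at −0.08, 0.44, −0.27 and 0.18 in controls 6.2, 8.2, 8.4 and 8.5. The medians of the ER stress genes there were −0.10, 0.08, −0.08 and 0.04. Meningeal markers (6 genes) had medians of −1.1 and 0.71 in MS 5.3 and MS 7.6 and of 0.41 and −0.61 in MS 7.1 and MS 7.2. The part of either in the ER values was not tested.

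**Figure D4:**
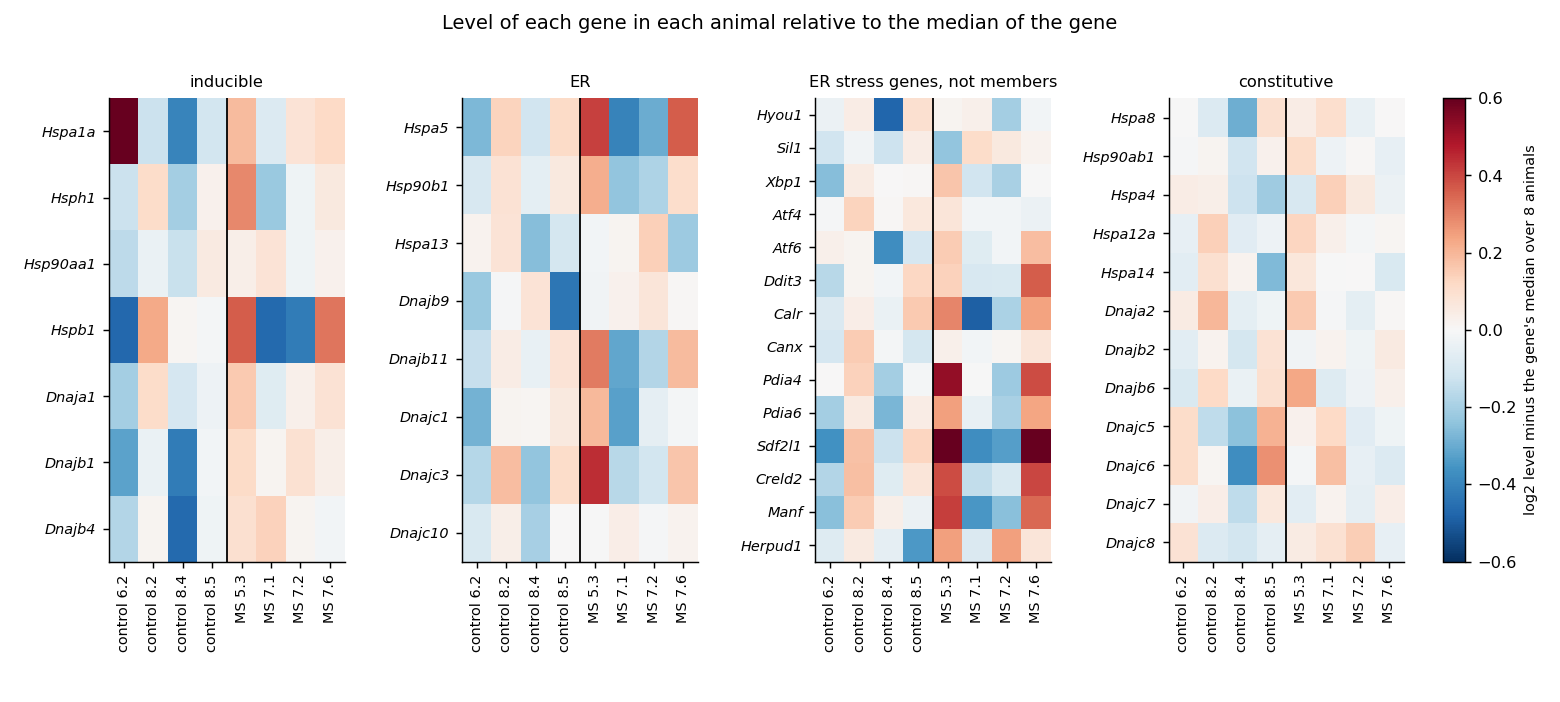
Level of each tested gene in each mouse minus the median of that gene over 8 mice (colour, log2, ending at 0.6 in both directions), for the inducible, ER and constitutive lists and for ER stress genes that are not members. Columns MS 5.3 and MS 7.6 are red and MS 7.1 and MS 7.2 blue for Hspa5, Hsp90b1, Dnajb11, Sdf2l1, Creld2 and Manf. Most constitutive genes are pale, with the largest deviation in control 8.4 (−0.37) and a range of −0.26 to 0.27 in control 8.5.

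Hsph1 was set against the other 6 tested inducible genes over the 8 mice to ask whether they share an order (exact permutation of all 40320 pairings, two-sided, with r and rho each adjusted over the 6 relations). Dnaja1 followed it with r = 0.84 (p = 0.00967, adjusted p = 0.0580, exact permutation) and rho = 0.88 (p = 0.00724, adjusted p = 0.0435, exact permutation). Without MS 5.3 and MS 7.1, the mice farthest from the median of Hsph1, r was 0.83. In the authors' table r was 0.59 (exact permutation p = 0.123), and over all probes of each gene it was 0.66 (exact permutation p = 0.0681). Hspb1 gave r = 0.74 (exact permutation p = 0.0374, adjusted p = 0.112) and rho = 0.79 (exact permutation p = 0.0279, adjusted p = 0.0838), and without the same mice r was 0.53. For Dnajb1 r was 0.61, for Dnajb4 0.48 and for Hsp90aa1 0.35, with p = 0.121, 0.239 and 0.389 and adjusted p values of 0.242, 0.358 and 0.467 (exact permutation). Their rho was 0.48, 0.19 and 0.07 (exact permutation, p = 0.243, 0.665 and 0.882, adjusted p = 0.486, 0.797 and 0.882). Without MS 5.3 and MS 7.1 these 3 values of r were 0.84, 0.89 and 0.78. For Hspa1a r was −0.19 and rho 0.21 (exact permutation, p = 0.662 and 0.619, adjusted p = 0.662 and 0.797), −0.35 without MS 5.3 and MS 7.1, and r was 0.68 without control 6.2. Each slide row and each group holds 4 mice, too few for a correlation of its own. The permutation took all 8 mice as exchangeable, across the groups and across mice that share the number before the point of the label. All genes of an array also share 1 scaling step. The p-values take neither into account.

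Outside the inducible list, Dnajc3 had the highest r with Hsph1 of all tested members, 0.96. The constitutive gene Dnajb6 came next with 0.93, and Hsp90b1, Dnajb11 and Hspa5 had 0.85, 0.85 and 0.84. These are descriptions over 8 arrays that share 1 scaling step per array.

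**Figure D5:**
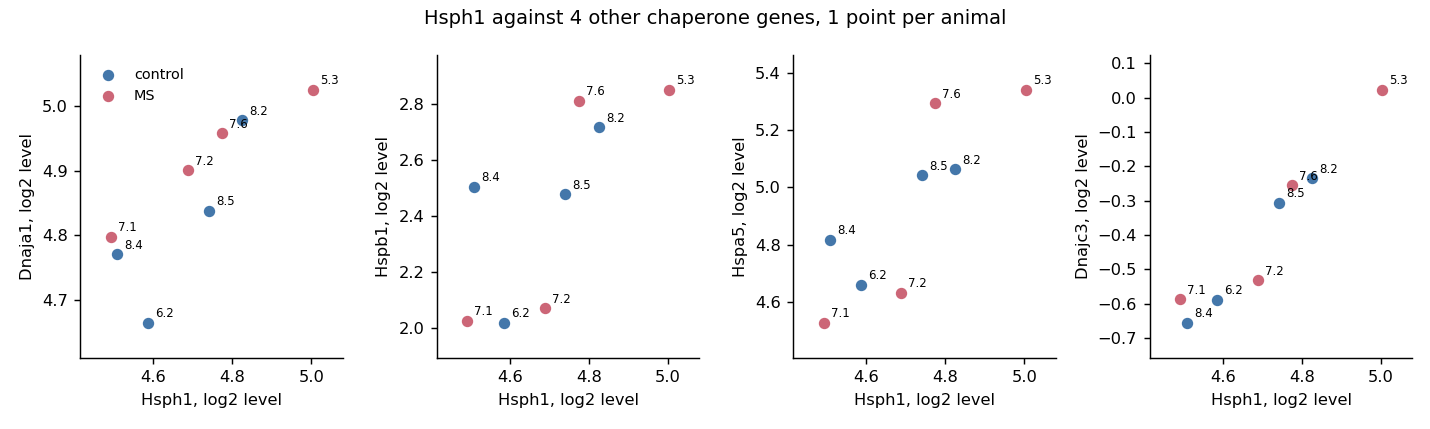
Level of Hsph1 (x axis) against Dnaja1, Hspb1, Hspa5 and Dnajc3 (y axes, all log2 signal minus the 75th percentile of the array), with 1 point per mouse in the colour of its group. MS 5.3 is at the upper right and MS 7.1 near the lower left of each plot.

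The constitutive genes had a median SD within groups of 0.11, beside 0.17 for all tested probes. Set against the tested probes nearest in brightness, their spread ran from low to ordinary or above. The SD of Hsp90ab1 was above that of 7.09% of such probes, Hspa8 51.6%, Dnajc6 71.9% and Dnajc5 79.1%. Hspa8 (Hsc70), the Hsp70 that every cell makes and that also uncoats clathrin vesicles at synapses, was at 7.65, 7.57, 7.36 and 7.75 in the controls and 7.70, 7.76, 7.61 and 7.66 in the MS mice. Control 8.4 was the lowest, and both groups overlapped above it. Its difference was 0.10 ± 0.10, or 0.02 without that mouse. A second probe gave 0.08 ± 0.09, and the dimmest of its 3 probes gave 0.41 ± 0.18. Hsp90ab1, the steady Hsp90, ran from 7.22 (control 8.4) to 7.44 (MS 5.3). Dnajc5, the cysteine string protein of synaptic vesicles, ran from 6.83 (control 8.4) to 7.28 (control 8.5), and Dnajc6 (auxilin), which brings Hspa8 to clathrin coats, from −0.80 (control 8.4) to −0.15 (control 8.5).

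Differences in the constitutive list ran from −0.02 (Dnaja2, a DnaJ partner of Hspa8) to 0.10 (Dnajc8, found with the splicing machinery), with a median of 0.03 and 11 of 12 above 0. Control 8.4 was the lowest mouse for 9 of these 12 genes. Without control 8.4 the median of the list was −0.00315 and 5 of 12 were above 0, beside a median of −0.0037 for all probes. Dnajb6, which keeps polyglutamine proteins from clumping, had 4 tested probes that ranged from 0.02, for the one used, to 0.26 ± 0.10, so its value depends on the probe. The inducible list had the larger median, 0.10 against 0.03, and the gap between them was not tested.

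Mitochondrial chaperones differed little between the groups. Hspd1 (Hsp60), the barrel that folds imported proteins, was at 4.21 to 4.25 in the 4 controls and at 4.37, 4.31, 4.30 and 4.16 in the MS mice (5.3, 7.1, 7.2, 7.6). The MS mice thus lay on both sides of the controls, and the difference was 0.05 ± 0.07. Hspe1 (Hsp10), its lid, gave −0.02 ± 0.08, and Dnajc19, which serves the import motor of the inner membrane, gave 0.10 ± 0.08, the largest of the list. The median over the 9 genes was 0.03, with 8 above 0.

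Among the small heat shock genes besides Hspb1, the difference was largest for Hspb7, a muscle gene, at 0.32 with a 95% interval of −0.24 to 0.88, and it was 0.08 without control 8.4. Its signal was low, from −6.17 in control 8.4 to −4.90 in MS 7.2, and it was not well above background on 1 control array. The 10 spots of this probe on each array had a median SD of 0.28, and the SD between mice of their means was 0.41. Hspb3, another muscle gene, gave −0.12 ± 0.18, or −0.00034 without control 8.4. The list of 7 had a median of 0.01, with 4 above 0.

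Of the 10 genes made mainly in testis or other single tissues, 6 were tested. Dnajb3, a testis gene, was the 1 member lower in MS at an unadjusted p under 0.05. It was at −2.08, −2.48, −1.88 and −2.17 in the controls and −2.70, −2.34, −2.38 and −2.45 in the MS mice, so control 8.2 lay among the MS mice. The difference was −0.31 ± 0.14 (limma, unadjusted p = 0.0482, adjusted p = 0.9996), and it was −0.39 in the upper and −0.24 in the lower slide row. Without control 8.4, the highest mouse, it was −0.22 (limma, unadjusted p = 0.119). The unadjusted p was under 0.05 without MS 7.1 or control 8.2 and above it without any of the other 6 mice. Hspa4l, an Hsp110 protein first found in testis, gave 0.16 ± 0.10, with control 6.2 the lowest at 2.61. Dnajb8 had 1 high value, −1.78 in control 8.5, with the other mice from −3.07 to −2.23. Hspa2, the testis Hsp70 that neurons also make, was the steadiest of all tested members, between 2.03 and 2.14 in the 8 mice with an SD within groups of 0.04.

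The spread between mice differed widely among the 66 tested members. Their 5 highest SDs within groups were those of Hspa1a (1.5, or 0.14 without control 6.2), Dnajb8 (0.45), Hspb7 (0.41), Hspb1 (0.38) and Dnajc21 (0.33), with Hspa5 next, also at 0.33. This order takes no account of brightness. The SD of Hspb7 was above that of 68.3% of the tested probes nearest in brightness, and that of Dnajb11, not among the 5, above 90.6%. Dnajc21, which acts in ribosome assembly, was at −0.39 in control 8.4, 0.62 in each of MS 5.3 and MS 7.6, and 0.04 to 0.31 in the other 5. The 5 lowest, 0.04 to 0.07, were those of Hspa2, Hspd1, Hspb11, Dnajb14 and Dnajb2, a neuronal DnaJ protein that sends clients to the proteasome. The median SD over the 66 members was 0.15. For 304 probes printed 10 times, the median SD was 0.07 between spots of 1 array and 0.13 between mice.

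Partners and regulators of the chaperones were followed as 21 genes that are not members. Hsf1, the heat shock factor itself, differed by −0.01 ± 0.10. Bag4, which releases clients from Hsp70, was at −0.81, −0.78, −1.02 and −0.92 in the controls and at −0.69, −0.68, −0.71 and −0.64 in the MS mice. It was the 1 gene of the 21 at an unadjusted p under 0.05 (0.20 ± 0.08, limma, unadjusted p = 0.0297, adjusted p = 0.9996), beside 1.18% of all probes higher in MS. Trap1, the mitochondrial Hsp90, gave 0.17 ± 0.10, Serpinh1, the collagen chaperone, −0.20 ± 0.23, and Bag5 −0.06 ± 0.09. Hspbp1, which strips nucleotide from Hsp70 and was picked after its values were seen, did not overlap between the groups either, at 2.36 to 2.82 in the controls and 2.83 to 2.85 in the MS mice, with control 8.4 the lowest. Groups that did not overlap, higher in MS, were thus found for 2 of the 21 genes, beside 0.856% of all probes. The median of the 21 was 0.05, with 17 above 0.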

How the data were processed

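Total RNA (200 ng per mouse) was labelled and hybridised to single-colour Agilent mouse arrays, 1 array per mouse, with 4 control and 4 MS mice grouped by the labels. The authors read each spot's intensity from the scan by Agilent Feature Extraction 10.10.1.1, which subtracted background and corrected for spatial trend, and did not scale these deposited signals between arrays. A deposited table of 34137 probes, in log2 and normalised between arrays by the authors, served as an alternative. Here the log2 processed signal minus the 75th percentile of each array was used, without control spots and spots marked as outliers, with spots of a probe averaged and the brightest probe taken for each gene. Differences were fitted with limma 3.58.1 in R 4.3.3 (lmFit, eBayes, no covariate) over the probes well above background on all 4 arrays of a group, with Benjamini-Hochberg adjustment. The random block used statmod 1.5.0. The fit was tested on simulated data, where it recovered 26.0%, 72.5% and 93.9% of changes of 0.5, 1 and 2 log2 among 34096 probes.

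The family rule, the lists and the tests were chosen with earlier results of these data known, so no list was tested. The text names all inducible genes, of each other list the brightest and the largest difference in each direction, every member whose groups did not overlap or whose unadjusted p was under 0.05, and the 5 highest and 5 lowest SDs. Of the lists that are not members it names 2 higher and 2 lower genes. Further genes named in the text were chosen after their values were seen. No source used here says what the number before the point of a label marks, so mice that share it (3 controls, 3 MS) may not be independent, and p-values measure the spread between these mice. All 8 arrays lay on 1 slide, with 2 mice of each group in each of its 2 rows. Alternatives were normexp background (offset 50), quantile or median scaling, the series table, other filters, the slide row as a block, the number before the point of the label as a random block, the mean over probes, and each mouse left out. Python 3.11.15 and matplotlib 3.10.9 made the figures. Gene symbols are those of the array files, on build mm9, and promoters come from RefSeq (GRCm38.p6).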

Additional observations from a re-analysis of the deposited data

Results flagged for a closer look

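Over 64 sets of 4 mice (named genes and list medians in each group), 5 held a mouse whose gap to the nearest other exceeded Dixon's 95% limit. Chance alone gives this in about 5% of sets that were not chosen on their values. Many genes here were named for their SD or their difference, Dnajb8, Dnajc21 and Dnajb14 among them, so that share does not apply. Hspa1a was at 3.32 in control 6.2, with the other controls from −1.11 to −0.82. Dnajb8 was at −1.78 in control 8.5, with the others from −2.89 to −2.80. Control 8.4 was low for 2 genes: Dnajc21 was at −0.39, with the others from 0.23 to 0.31, and Dnajb14 at 2.48, with the others from 2.59 to 2.60. The median of the tissue-restricted list was −0.094 in control 6.2, with the others from −0.0028 to 0.0077.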

How the results depend on the processing

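No chaperone gene and no probe passed the adjusted threshold under any alternative run, and the smallest adjusted p of any probe was 0.418. No paired analysis was possible because the labels give the groups no shared replicate numbers. Members at an unadjusted p under 0.05 numbered 2, and 1 in the authors' table, with median scaling, with normexp and with the slide row as a block, 0 without a filter, 4 with the first number of the label as a random block, and 0 to 4 with a mouse left out (4 without control 8.2; 1 without control 8.5; 0 without MS 5.3, MS 7.2, MS 7.6 or control 8.4). Probes at that p numbered 816, and 3741 with that random block, 415 with normexp and 543 to 1620 with a mouse left out (543 without MS 7.2, 1620 without control 8.2, 1296 without MS 5.3). Each first number occurs in 1 group only, and that of control 6.2 and that of MS 5.3 mark 1 mouse each. The counts with the random block therefore cannot show whether mice that share a number are independent. Members whose groups do not overlap numbered 1, and 0 in the authors' table, with median scaling and with normexp. With a mouse left out they numbered 1 to 5 (5 without MS 7.6 or control 8.2, 3 without control 6.2, 2 without control 8.5). The alternatives of this count were chosen after seeing the data. Without control 8.2, and likewise without MS 7.6, 4 of the 66 members were higher in MS and 1 lower. The shares of all probes rose as well, from 0.856% higher and 0.584% lower with 8 mice. They were 3.47% and 2.82% without control 8.2, and 2.44% and 1.5% without MS 7.6. Without control 6.2 they were 2.19% and 1.51%, and without control 8.5 2.18% and 1.22%. The median difference of the inducible list, 0.10, ran from 0.03 to 0.15 over all alternatives, and that of the constitutive list from −0.00315 to 0.050. Of 416 log2 differences of the 26 named genes, 26 changed sign. These were Dnaja2 (0.0037 with median scaling), Dnajb8 (0.0069 with normexp), Hspa5 (−0.026 with the random block), Hspb1 (−0.092 with the random block, −0.0078 with quantile normalisation) and Hspe1 (0.0065 over all its probes). With a mouse left out, the ranges of the genes that changed sign were −0.060 to 0.037 for Dnaja2, −0.0076 to 0.057 for Dnajb2, −0.18 to 0.22 for Dnajb8, −0.10 to 0.048 for Hsp90b1, −1.19 to 0.29 for Hspa1a, −0.078 to 0.19 for Hspa5, −0.13 to 0.15 for Hspb1, −0.011 to 0.050 for Hspb11, −0.061 to 0.025 for Hspe1 and −0.014 to 0.16 for Hsph1. The r of Hsph1 with Hsp90aa1 was −0.24 in the authors' table and −0.052 with quantile normalisation, that with Dnaja1 ran from 0.59 to 0.88 over the settings with all mice, and that with Hspa1a ran from −0.34 to 0.68 with a mouse left out. The cause of these changes was not tested, and the 4 arrays per group limit what could be detected.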
